A study of Homo sapiens with 6 samples.

Results

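The regions described here are 3313 open chromatin regions of MM.1S cells that lie away from gene starts, were detected in every library, and ranked lower in all 3 libraries of CB-6644-treated cells than in all 3 libraries of DMSO-treated cells. Peaks from the 6 deposited lists were merged where they overlapped by 1 bp or more on chromosomes 1 to 22, X and Y, which gave 89196 merged regions, of which 42089 were called in all 6 libraries. Removing 13341 of these that came within 1000 bp of the start of a protein-coding transcript (TSS), and 415 that reached 1200 bp in width, left 28333 shared distal regions. Each peak's fold enrichment was then turned into a percentile of its own list, where 100 is the strongest peak. Regions were chosen by these percentiles, and a region was called weaker when its lowest DMSO percentile exceeded its highest CB-6644 percentile by at least 5 points, and this difference is called the margin below. The 3313 weaker regions are 11.7% of the shared distal regions. The same rule turned around called 825 regions, or 2.91%, stronger after CB-6644.

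MM.1S is an established human multiple myeloma cell line, a malignant counterpart of the antibody-secreting plasma cell. Cells were exposed to 120 nM CB-6644 for 72 h or to the DMSO vehicle, with 3 libraries each, and live cells were sorted before Omni-ATAC. In this assay a transposase cuts accessible DNA and leaves adapters there, so that sequenced fragments pile up at open sites. The labels do not say whether the replicates came from separate cultures, so the spread between them may be technical. All data come from a single line and a single dose and time.

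CB-6644 blocks ATP hydrolysis by RUVBL1 and RUVBL2, paired AAA+ ATPases that are subunits of the INO80, SRCAP and TIP60 chromatin remodeling complexes. Distal accessible regions are often enhancers, where sequence-specific transcription factors keep nucleosomes away and act on a promoter at a distance. Among the factors with sites in such regions are ATF4, the effector of the integrated stress response, which pairs with C/EBP proteins, and IRF4, on which plasma cells and myeloma cells depend. MAF, a bZIP factor that drives a subset of myelomas, and TCF4, a bHLH factor that binds E-boxes, are the other factors considered.

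The sequences that follow show the weaker region with the largest margin and examples from the 2 weaker regions with the largest margins for 3 of the 4 motifs examined most closely. Capital letters mark the motif match, and lower case marks the flanks. All sequences are the hg38 reference, forward strand. The first is centred on the summit, the position of highest pile-up, and the others on the match.
GPC6 intron, summit, chr13:93751235-93751315: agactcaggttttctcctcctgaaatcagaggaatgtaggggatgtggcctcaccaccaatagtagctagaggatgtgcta
ATF4-CEBP match, 841 kb from IFTAP, chr11:37450674-37450721: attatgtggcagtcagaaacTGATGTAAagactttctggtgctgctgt
ATF4-CEBP match, intergenic on chromosome 7, chr7:117259231-117259278: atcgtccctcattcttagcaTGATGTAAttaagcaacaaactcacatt
IRF match, FSIP2 exon, chr2:185790590-185790638: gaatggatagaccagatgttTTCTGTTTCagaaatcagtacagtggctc
IRF match, intergenic on chromosome 1, chr1:194309876-194309924: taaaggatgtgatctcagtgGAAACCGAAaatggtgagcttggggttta
MAF match, LPP intron, chr3:188788965-188789011: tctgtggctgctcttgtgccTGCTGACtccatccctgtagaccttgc
The region with the largest margin held none of the 4 motifs within 100 bp of its summit, and in this it was like 48.4% of the weaker regions.

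The 6 lists differed before any region was chosen. The CB-6644 lists held 59393, 71781 and 58563 peaks and the DMSO lists 79020, 71098 and 65569. Their shortest peaks were 138, 65 and 139 bp for CB-6644 and 91, 131 and 152 bp for DMSO. Since the peak caller by default uses its fragment length estimate as the shortest peak, CB-6644 replicate 2 and DMSO replicate 1 are called the short-fragment libraries here, which is an inference from the lists. The lists hold no read counts, but the fold and the −log10 p of a peak together give back the number of fragments over its summit and the local background expected there. All 8 plasma cell marker promoters examined, among them SDC1, TNFRSF17 and IRF4, had a peak in all 6 libraries. Of 10 marker promoters of other cells, 7 had a peak in none, including the T cell genes CD3D and CD3E and the B cell gene MS4A1, and CD14, COL1A1 and HBB had a peak in all 6.

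The weaker regions ranked above the other shared distal regions after DMSO and below them after CB-6644. Their median percentile was 72.2, 74.7 and 73.6 in DMSO replicates 1 to 3 and 47.1, 39.5 and 45.7 in CB-6644 replicates 1 to 3. These values chose the regions and are given as a description, without a test. The other 25020 shared distal regions had medians of 68.9, 65.9 and 62.8 after DMSO and 64.2, 64.9 and 63.5 after CB-6644. The median difference, CB-6644 minus DMSO, was −25.5 points in the weaker regions and −2.15 points in the others. Within a group, the range over the 3 libraries had a median of 14.6 points after CB-6644 and 8.95 points after DMSO in the weaker regions, so the treated libraries agreed less closely on them.

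**Figure D1:**
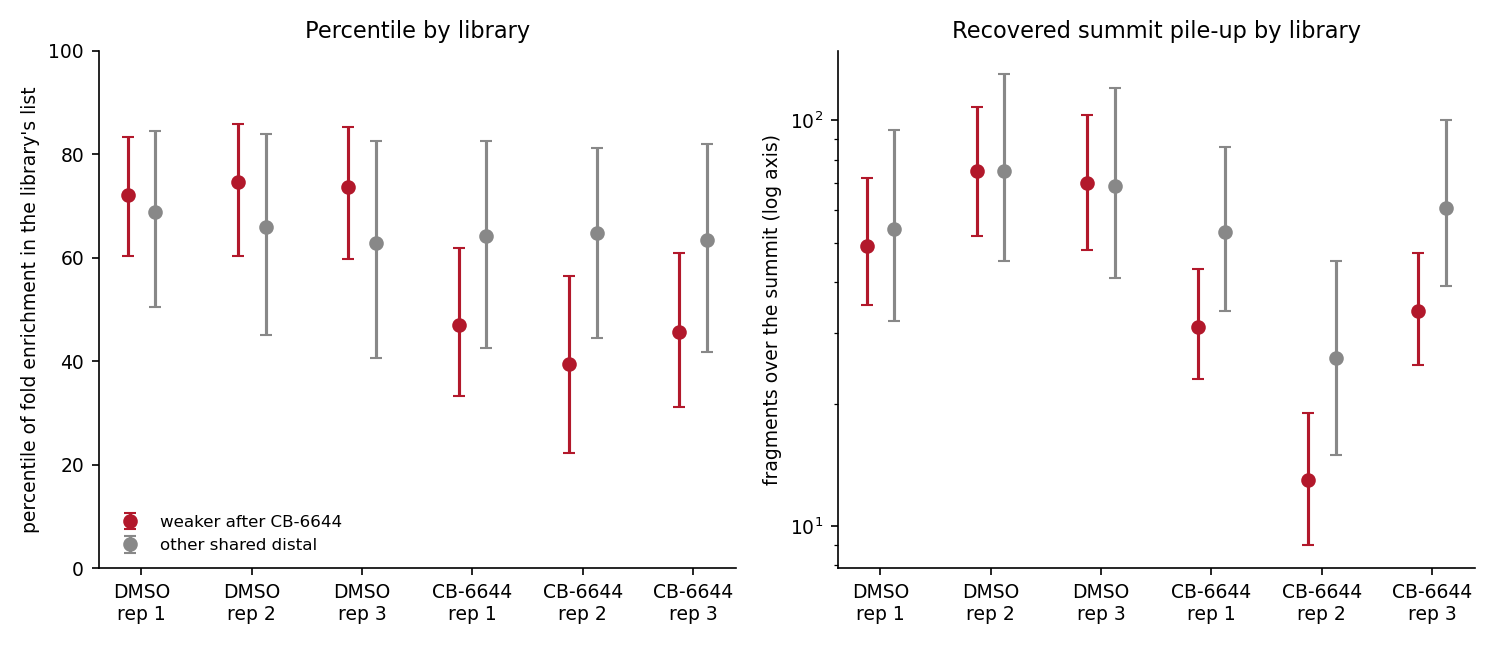
The left panel plots the percentile of fold enrichment (0 to 100) and the right panel the recovered number of fragments over the summit (log axis) in each of the 6 libraries. Points are medians and bars the interquartile range over the 3313 weaker regions (red) and the 25020 other shared distal regions (grey). Weaker regions sit above the others in every DMSO library by percentile and below them in every CB-6644 library.

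The fragment numbers recovered at the summits put these ranks in countable terms. They are solved from the fold that chose the regions and its p, so they too are a description and not separate support. A typical weaker region had 49, 75 and 70 fragments over its summit in the DMSO libraries (medians, replicates 1 to 3) and 31, 13 and 34 in the CB-6644 libraries. The low value of 13 belonged to CB-6644 replicate 2, whose other shared distal regions had a median of only 26 fragments against 53 to 75 in the other 5 libraries. After each library was divided by its own median over the shared distal regions, the pile-up of the weaker regions differed by a median of −0.67 on the log2 scale between CB-6644 and DMSO, against 0.10 in the other regions and 1.17 in the stronger regions. The local background moved less, by −0.15 in the weaker regions. The scaled pile-up was lower in every CB-6644 library than in every DMSO library for 2385 weaker regions (72.0%), where 16.8% of all shared distal regions met that condition, and the mean scaled pile-up was lower for 3244 of them (97.9%), against 45.8% of all shared distal regions. In these bulk libraries, fewer cells with an open region and less opening in each cell cannot be told apart.

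Margins were mostly modest, with a tail of large ones. The median margin was 11.7 points, 1959 weaker regions had a margin of at least 10 points, 652 of at least 20, 208 of at least 30, 45 of at least 40 and 6 of at least 50. Among the stronger regions 454, 138, 29, 5 and 0 reached these margins. The 5 regions just inside the rule had margins of 5.001 to 5.005 points, the 5 just outside had 4.986 to 4.995, and both sets ranged from near the 40th to near the 95th percentile in their lowest DMSO library. Without any margin, 5850 regions (20.6%) ranked lower in every CB-6644 library and 1708 (6.03%) ranked higher.

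How many regions were weaker, and whether weaker outnumbered stronger, depended on how the ranks were taken. Ranking by −log10 p called 4485 weaker (15.8%) and 1073 stronger (3.79%). Ranks taken only among the regions shared by all 6 libraries called 2301 weaker (8.12%) and 1626 stronger (5.74%). Lists cut to the same 58563 top peaks left 24712 shared distal regions, since a region whose peak was cut in any library left the pool. Of these, 1647 were weaker (6.66%) and 1669 stronger (6.75%). When the recovered pile-up was ranked, again only among the shared regions, so that both the quantity and the pool differed from the rule, 2790 were weaker (9.85%) and 2596 stronger (9.16%), and ranks of the fold among the shared distal regions within 5 classes of GC content gave 2127 (7.51%) and 2062 (7.28%). The excess of weaker over stronger regions was therefore 4.02 to 1 under the rule and between 0.99 and 1.42 to 1 under the last 4 of these rankings. The lists of CB-6644 replicates 1 and 3 were the shortest of the 6, while that of CB-6644 replicate 2 was longer than those of DMSO replicates 2 and 3, and the part of list length in the excess was not tested library by library. Single libraries also moved the counts. When 1 is left out, fewer libraries have to differ and the pool of shared distal regions changes. Without CB-6644 replicate 2 there were 6393 weaker (19.7%) and 1532 stronger regions (4.71%) among 32533. Without CB-6644 replicate 3 there were 1258 stronger (4.28%), and without DMSO replicate 1 there were 2052 stronger (7.16%).

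**Figure D2:**
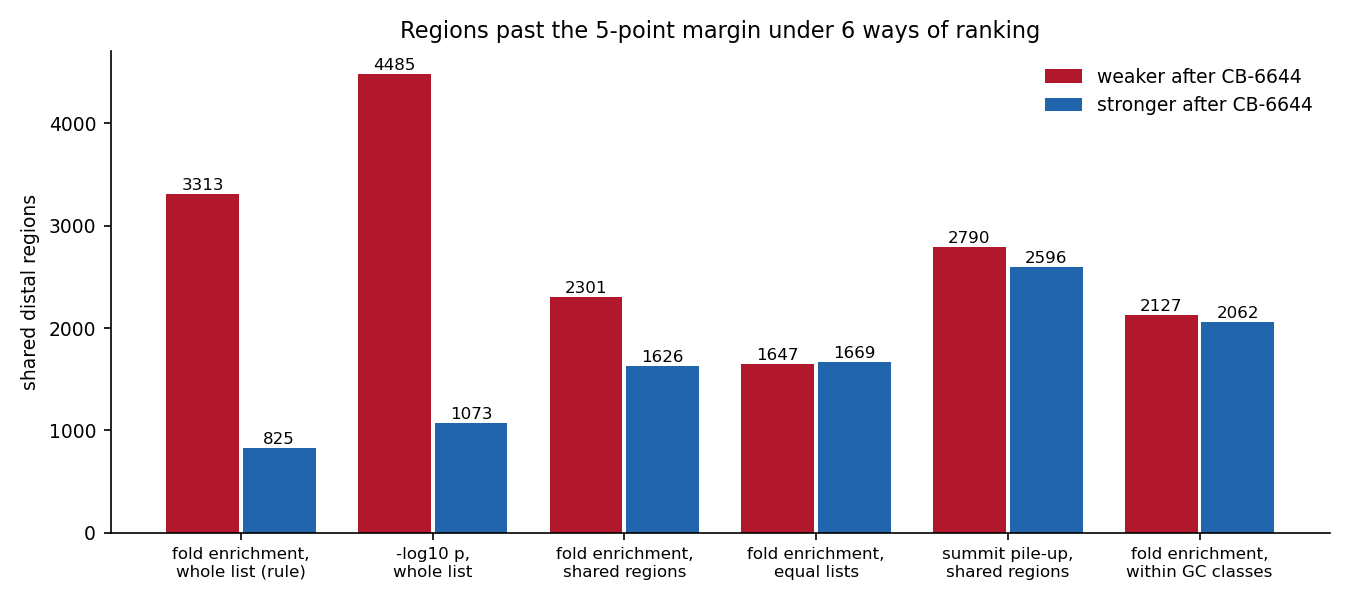
Bars give the number of shared distal regions (vertical axis, from 0) past the 5-point margin, weaker (red) or stronger (blue) after CB-6644, under 6 ways of ranking. Weaker regions outnumber stronger ones 3313 to 825 under the rule. The numbers are 1647 and 1669, in a smaller pool of 24712 regions, when all lists have the same length.

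Regions with large margins were called under most rankings. Of the 3313 weaker regions, 969 (29.2%) were also weaker under all of the last 4 rankings and 735 under none of them. The share that stayed under all 4 was 7.68% at margins of 5 to 10 points, 33.9% at 10 to 20, 63.3% at 20 to 30 and 67.8% at 30 or more. Among the 10 regions with the largest margins, 8 stayed weaker under all 4. The other 2 stayed under 3. With equally long lists these 2 were not ranked, because their peaks in CB-6644 replicate 2, at percentiles 13.4 and 15.9, were cut. In all these shares, a region that left the pool with equally long lists counts as not weaker under that ranking. Loss from the pool and change of rank were not separated.

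The region with the largest margin lies in an intron of GPC6, a glypican that anchors heparan sulfate at the cell surface, at chr13:93751034-93751468. It was at percentiles 94.2, 87.4 and 91.4 after DMSO and 18.3, 19.9 and 21.2 after CB-6644. The recovered summit held 70, 80 and 83 fragments after DMSO and 14, 8 and 17 after CB-6644, a drop that left every treated library far below every control.

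The next in order was intergenic, 841 kb from the nearest protein-coding start (IFTAP), at chr11:37450652-37451034. Its percentiles were 93.2, 94.7 and 94.8 after DMSO and 36.2, 19.9 and 33.7 after CB-6644, with 86, 111 and 105 fragments against 20, 8 and 22. It carried the ATF4-CEBP match shown above, 93.5 bp from the summit and so near the edge of the window.

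A region 34.1 kb from PGAP1, an enzyme that remodels the lipid anchor of GPI-linked proteins, fell from percentiles of 89.95, 97.3 and 96.6 to 27.1, 19.9 and 33.7 (chr2:196961923-196962272). Its summit had 84, 131 and 128 fragments after DMSO and 17, 8 and 22 after CB-6644. In an intron of BARD1, the partner of BRCA1 in homologous recombination, chr2:214737271-214737587 was at 82.9, 83.1 and 89.5 after DMSO and at 30.1, 19.9 and 33.7 after CB-6644. In these 4 regions every CB-6644 library was far below every DMSO library.

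The other 6 of the 10 were all intergenic, with margins of 48.0 to 54.8 points. Among the genes with the nearest starts were HS3ST1, GALR1, MBL2, MAGEA8 and NCAM2, at 23.1 kb for MAGEA8 and 2076 kb for NCAM2. Of the 10, 1 matched ATF4-CEBP, 1 matched MAF and none matched IRF. The value 19.9 recurs in CB-6644 replicate 2 because 8 fragments over the lowest background of that library give the same ratio in every region, so small differences between weak peaks of that library could not be resolved.

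Sequence was not used to choose the regions, but the share called weaker fell with GC content, as given below. Several motif differences shrank within classes of GC content, so motif matches are not independent of the rule. A match was the consensus on either strand within 100 bp of the summit, a 201 bp window. Shares carry 95% Wilson intervals, which cover counting error over regions only, since regions are not replicates of the treatment. The 4 motifs come from the study's own footprint analysis of these samples and are not independent evidence of a direction.

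The ATF4-CEBP composite site, searched as TGATGNAA, was found in 191 weaker regions, or 5.77% (5.02 to 6.61%). It was found in 2.81% (2.61 to 3.02%) of the other shared distal regions and in 2.06% (1.29 to 3.28%) of the stronger ones. The difference of 2.96 points (2.19 to 3.83) was 2.25 points when the sets were compared within classes of GC content. Its share was 4.28% among weaker regions with margins of 5 to 10 points, 5.51% at 10 to 20, 9.46% at 20 to 30 and 9.13% (5.93 to 13.8%) at 30 or more.

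Matches of this site were not alike. Of all 893 shared distal regions with the site, 21.4% were weaker, against 11.7% of all shared distal regions. The form TGATGCAA was found in 225 regions, of which 64 were weaker (28.4%, 22.9 to 34.7%), and TGATGAAA in 331, of which 78 were weaker (23.6%). For TGATGTAA it was 33 of 186 (17.7%) and for TGATGGAA 16 of 164 (9.76%, 6.09 to 15.3%). Extending the C form by a T to the longer composite site TGATGCAAT left 55 regions, of which 21 were weaker (38.2%, 26.5 to 51.4%). The C form and the G form had intervals that did not overlap. The forms were compared after their counts were seen.

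IRF sites, searched as GAAANNGAA, were found in 700 weaker regions, or 21.1% (19.8 to 22.6%), in 13.7% of the others and in 7.88% (6.23 to 9.92%) of the stronger regions. The difference of 7.47 points was 2.75 within classes of GC content and 4.203 without CB-6644 replicate 2. At least 2 matches were present in 3.14% of weaker regions and in 1.63% of the others. Both ATF4-CEBP and IRF were matched in 43 weaker regions (1.30%, 0.97 to 1.74%) and in 0.53% (0.45 to 0.63%) of the others, and 24.4% of the 176 regions with both were weaker.

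MAF half-sites, searched as TGCTGAC, went the other way. They were found in 136 weaker regions, or 4.11% (3.48 to 4.84%), in 7.03% of the others, and in 143 of the 825 stronger regions, 17.3% (14.9 to 20.1%). The difference between weaker and other regions, −2.92 points, was −3.29 within classes of GC content. The E-box CAGGTG was found in 29.8% of weaker regions, 35.2% of the others and 44.1% of the stronger ones, and its difference of −5.36 points became −1.95 within classes of GC content.

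The 16 other motifs gave differences from −6.50 points for the GC-box of the SP and KLF factors (GGGCGG) to 4.77 points for the RUNX site (TGTGGTT). Within GC classes these became −0.26 and 1.81. The STAT motif TTCNNNGAA was found in 7.36% of weaker and 5.15% of other regions, a difference of 2.21 points and 1.28 within GC classes. The insulator protein CTCF (CNAGNGGGC) was matched in 4.50% of weaker and 7.45% of other regions, a difference of −2.96 points that shrank to −0.40. The ETS-IRF composite site, GGAANNGAA, was found in 8.24% of weaker and 8.98% of other regions, a difference of −0.74 points and −2.58 within GC classes. Some of these letters overlap, since GAAANNGAA and GGAANNGAA share their last bases and TGATGNAA contains part of a C/EBP site. Within GC classes, the ATF4-CEBP and IRF differences were the highest and MAF the lowest of the 20.

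**Figure D3:**
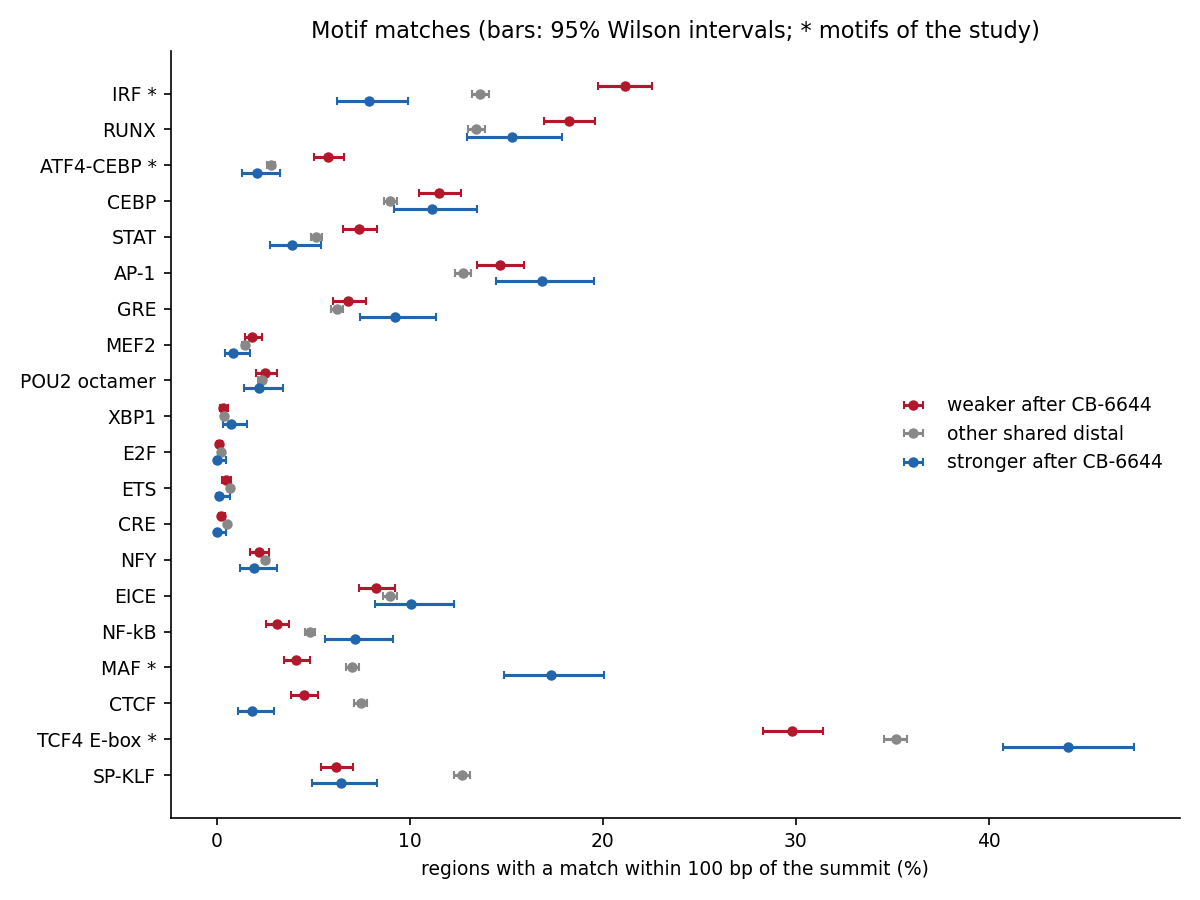
Points give the share of regions (%) with a match within 100 bp of the summit for each of 20 motifs, in weaker (red), other shared distal (grey) and stronger regions (blue), with 95% Wilson intervals as bars. IRF and ATF4-CEBP are more frequent in weaker regions (21.1% and 5.77%) than in the other sets, MAF and the TCF4 E-box in stronger regions (17.3% and 44.1%).

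A comparison that does not use the rule takes every shared distal region with a motif, weaker or not. In each library their mean percentile was set against that of all 28333 shared distal regions. The 893 ATF4-CEBP regions stood 0.30, 1.70 and 2.09 points from that mean in DMSO replicates 1 to 3 and −2.42, −5.30 and −2.69 points from it in CB-6644 replicates 1 to 3. The groups did not overlap. The means were 1.36 ± 0.95 points (SD, n = 3) after DMSO and −3.47 ± 1.59 (SD, n = 3) after CB-6644, a difference of −4.84 points (exact two-sided permutation test over the 6 libraries, p = 0.1, the smallest that 3 against 3 allows, adjusted p = 0.2 over the 4 motifs). The difference was −4.46 points in the long-fragment libraries and −5.59 in the short-fragment pair.

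The 1894 MAF regions moved in the opposite direction, with excesses of −2.08, −2.02 and −2.05 points after DMSO and 2.97, 3.24 and 2.63 points after CB-6644. The difference was 5.001 points, larger than the spread in either group (exact permutation p = 0.1, adjusted p = 0.2). For the 4117 IRF regions the DMSO values were 0.43, 3.82 and 4.42 and the CB-6644 values 1.55, −5.33 and 0.80. These groups overlapped, and the difference was −3.88 points (exact permutation p = 0.3), beside SDs of 3.77 points after CB-6644 and 2.15 after DMSO. Without CB-6644 replicate 2 it was −2.10 points. The 9791 E-box regions differed by 1.59 points and overlapped as well (exact permutation p = 0.2), and without CB-6644 replicate 2 the difference was 1.017 points. The overlap depended on the ranking. With ranks within GC classes the IRF difference was −2.60 points and the E-box difference 1.11 points. Each then had the smallest possible p (exact permutation p = 0.1, not adjusted).

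**Figure D4:**
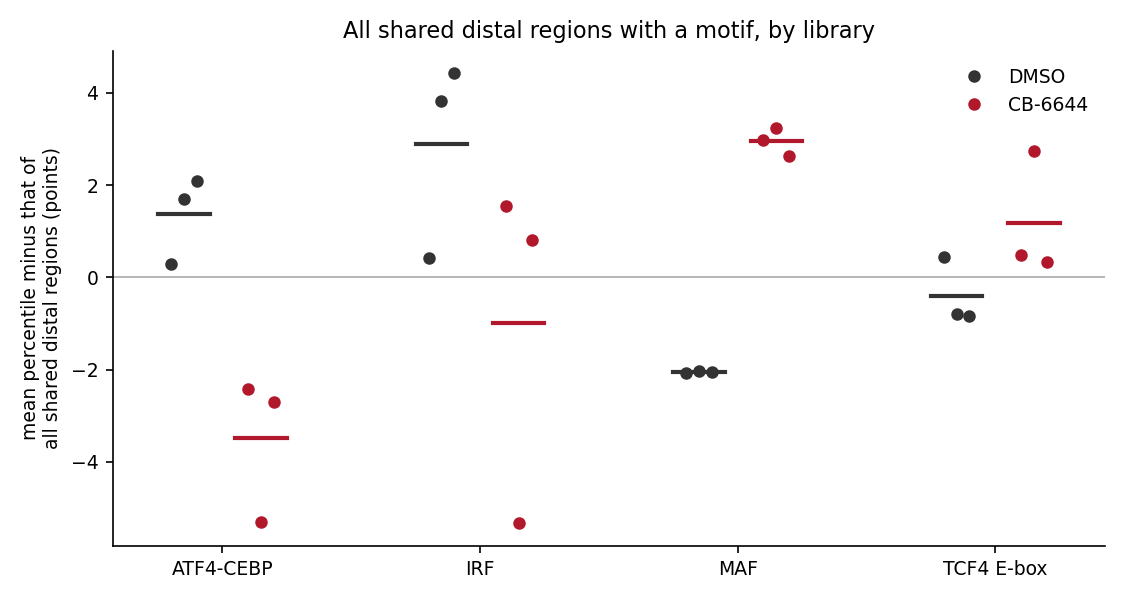
Each point is a library, and its height is the mean percentile of all shared distal regions with a motif minus the mean of all shared distal regions, in percentile points. Bars are group means (black DMSO, red CB-6644, n = 3 each), and the groups are separate for ATF4-CEBP and MAF and overlap for IRF and the TCF4 E-box.

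Base composition moved with the call. The weaker regions had a median GC content of 45.8% in the 201 bp window, against 50.7% in the others and 49.8% in the stronger regions. From the lowest to the highest of 5 GC classes the share called weaker went from 20.4% (19.4 to 21.4%) through 14.6, 10.3 and 7.26 to 4.85% (4.32 to 5.45%), while the stronger share was 2.13, 3.88, 3.58, 3.47 and 1.62%. The libraries also differed in this respect. In CB-6644 replicate 2 the median percentile of all shared distal regions rose from 47.5 in the lowest GC class to 73.8 in the highest, whereas it went from 60.6 to 62.8 in replicate 1 and from 58.8 to 63.9 in replicate 3. DMSO replicate 1 rose from 65.7 to 75.9, DMSO replicate 2 was at 69.6 in both classes, and DMSO replicate 3 fell from 69.0 to 64.2.

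When only the 4 long-fragment libraries were used, with the same 28333 regions, 6260 were weaker (22.1%) and 2752 stronger (9.71%). The weaker share then went from 33.9% in the lowest GC class to 14.8% in the highest, so the gradient was present without both short-fragment libraries. Whether base composition has a part in the call beyond these values was not tested.

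**Figure D5:**
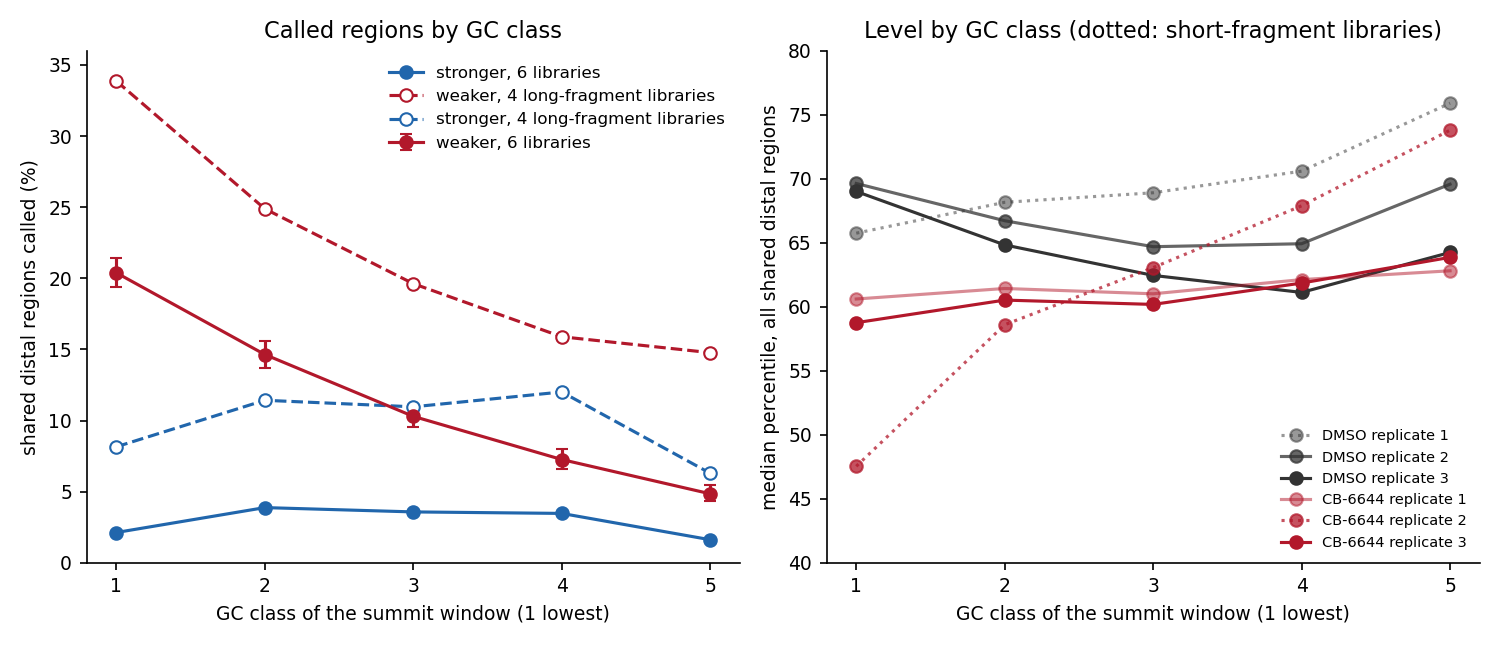
The left panel gives the share of shared distal regions (%) called weaker (red) or stronger (blue) in 5 classes of GC content, with 6 libraries (filled, 95% Wilson intervals on weaker) and with 4 long-fragment libraries (open). The right panel gives the median percentile of all shared distal regions per library, from 47.5 to 73.8 across the classes in CB-6644 replicate 2.

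The call was looked up in libraries that had not made it. Of the 6260 regions weaker in the 4 long-fragment libraries, 5505 (87.9%, 87.1 to 88.7%) had a higher percentile in DMSO replicate 1 than in CB-6644 replicate 2, where 65.0% of all shared distal regions did. Among the 2752 stronger in those 4 it was 26.3%. The regions weaker in the 4 were more frequent at low GC content, where this pair differed most over all shared distal regions. The medians were 65.7 in DMSO replicate 1 and 47.5 in CB-6644 replicate 2 in the lowest GC class, and 75.9 and 73.8 in the highest. The 65.0% is therefore not a background of like GC content, and such a background was not computed. The share was 92.1% at margins of at least 10 points and 97.4% at margins of at least 20. Leaving out each of the 9 possible pairs of a CB-6644 and a DMSO library in turn gave shares of 62.3 to 90.3%, against 52.6 to 69.9% for all shared distal regions. The lowest belonged to the pair of CB-6644 replicate 2 and DMSO replicate 3, where the share over all regions was 52.6%. Each look-up has 1 library per group and carries no test.

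Weaker regions lay farther from genes than other shared distal regions. Their median distance to the nearest protein-coding TSS was 39.3 kb against 29.9 kb, and 16.8% against 12.1% lay beyond 200 kb. The share called weaker was 7.91% (7.02 to 8.90%) at 1 to 5 kb, 10.5% at 5 to 20 kb, 11.7% at 20 to 50 kb, 11.8% at 50 to 100 kb, 14.0% at 100 to 200 kb and 15.5% (14.4 to 16.8%) beyond 200 kb. By annotation 1699 weaker regions were intergenic (51.3%), 1482 intronic (44.7%), 66 exonic and 66 in untranslated regions. A start of a long non-coding RNA lay within 1 kb of 4.196% of weaker and 6.96% of other regions. Among the autosomes the weaker share ranged from 6.76% on chromosome 19 to 15.7% on chromosome 13. Distance, GC content and chromosome vary together, and their separate parts were not tested.

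Strength set limits on the call as well. In the weakest class of 5 by mean percentile 10.01% of regions were weaker, in the next classes 16.7, 16.3 and 11.9%, and in the strongest class 3.53%. Stronger regions followed the same course, from 2.89% through 4.18, 4.02 and 2.72 to 0.74%. The median width was 443 bp in the weaker, 453 bp in the other and 387 bp in the stronger regions.

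Weaker regions had no weaker neighbour within 2 kb under the rule. Of 141 shared distal regions within 2 kb of a weaker region on the chromosome, none was weaker, which allows a share of up to 2.65% by the Wilson interval. Of the 141, 20 were stronger (14.2%, beside 2.91% of all shared distal regions). Beside regions that were not weaker, 6.56% of the neighbours within 2 kb were weaker. At 2 to 10 kb 11.3% of neighbours were weaker, and at 10 to 50 kb 14.4%. Beside regions that were not weaker these shares were 9.61% and 11.2%. The absence was not seen when the pile-up was ranked among the shared regions. There 54 of 276 neighbours within 2 kb were weaker (19.6%) and 16 were stronger (5.80%), beside 9.85% and 9.16% of all shared distal regions. Regions called only in the 3 DMSO libraries lay within 50 kb of 18.3% of weaker regions and of 18.3% of the other shared distal regions.

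Weaker regions were spread over many genes. With each region assigned to its nearest protein-coding gene within 200 kb, which does not show that the gene is its target, 10098 genes had at least 1 shared distal region. Of these genes, 2287 had at least 1 weaker region, 368 at least 2, 78 at least 3 and 5 had 5. These 5 were ETS2, UNC5D, NCK2, ASAP1 and MAST4. Stronger regions were fewer under the rule, 825 against 3313. At least 1 lay beside 653 genes and 3 or more beside 3 genes, and 190 genes had both kinds.

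ETS2, an ETS-family transcription factor on chromosome 21, had 5 weaker regions among 10 and no stronger region. The region with the largest margin, 43.7 kb from its start at chr21:38853325-38853803, was at 68.7, 62.0 and 82.0 after DMSO and at 27.1, 29.1 and 33.7 after CB-6644, with 38, 49 and 62 fragments against 17, 10 and 22. The other 4 had margins of 8.42 to 18.7 points. UNC5D, a netrin receptor, had 5 of 6. NCK2, an adaptor that links receptor tyrosine kinases to actin, had 5 of 15 and 1 stronger region. ASAP1, an Arf GTPase-activating protein, had 5 of 19, and the kinase gene MAST4 5 of 14.

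ARHGAP26 had 4 weaker regions and 1 stronger region among 15. At chr5:143262447-143262804, 55.2 kb from its start, the percentiles were 83.7, 87.5 and 85.0 after DMSO and 47.4, 19.9 and 43.8 after CB-6644. This region carried an ATF4-CEBP match on the reverse strand. The stretch around its summit, chr5:143262518-143262598, is shown with the match in capitals.
ARHGAP26 region: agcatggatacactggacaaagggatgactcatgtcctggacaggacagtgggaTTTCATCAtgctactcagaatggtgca
KLF4, a Krüppel-like factor, had 4 of 8 and the actin-binding caldesmon gene CALD1 4 of 7. The KLF4 region with the largest margin, chr9:107674771-107675309, was weak throughout, at 42.5, 46.9 and 35.8 after DMSO and 12.5, 2.9 and 7.0 after CB-6644. It rested on 19 to 32 fragments after DMSO and on 5 to 12 after CB-6644. It was no longer weaker when the pile-up was ranked among shared regions. With equally long lists it was not ranked, because its peak in CB-6644 replicate 2 fell among those cut.

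Among genes of the plasma cell program 13 of 127 shared distal regions were weaker (10.2%, 6.08 to 16.7%), beside 11.7% of all, and 7 were stronger (5.51%, beside 2.91% of all). PRDM1, ZBTB20 and XBP1 had 1 stronger region each as well as the weaker ones. PRDM1, which encodes the plasma cell master regulator BLIMP-1, had 3 of 18, all in introns of the neighbouring autophagy gene ATG5. The first, chr6:106180164-106180599, 81.2 kb from the PRDM1 start, had 111, 145 and 149 fragments over its summit after DMSO and 26, 13 and 36 after CB-6644, with percentiles of 94.1, 90.3 and 96.1 against 48.2, 44.1 and 58.9. The second, chr6:106194965-106195603, matched ATF4-CEBP, IRF and the E-box together and was at 67.2, 74.4 and 83.7 against 47.2, 7.5 and 42.0. ZBTB20, a zinc finger factor that acts in plasma cells, had 3 of 13. A region 11.2 kb from XBP1, the secretory program regulator, was at 71.9, 80.3 and 68.9 after DMSO and at 17.6, 24.0 and 37.97 after CB-6644 (chr22:28811757-28812523).

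Genes of the integrated stress response and amino acid supply had 5 weaker regions of 68 (7.35%, 3.18 to 16.1%). SLC38A2, which encodes a neutral amino acid transporter and is a known target of ATF4, had 4 of the 5, among its 10 shared distal regions, and 1 stronger region. The 4 weaker regions lay 97.2 to 176.8 kb from its start, and none matched ATF4-CEBP within 100 bp of the summit. The region with the largest margin, chr12:46549575-46550254, had 116, 188 and 190 fragments after DMSO and 44, 9 and 41 after CB-6644. CEBPB, a partner of ATF4, had 1 of 2. The unfolded protein response list had 5 of 85 (5.88%), of which ERN1, the IRE1 sensor, and CREB3L1 had 2 each.

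The interferon list had 8 of 42 (19.05%, 9.98 to 33.3%) and the cell cycle and DNA replication list 13 of 69 (18.8%, 11.4 to 29.6%), both with intervals that include 11.7%. SAMD9, an interferon-induced antiviral gene, had 2 of 3, and its region at chr7:93062639-93063118 was at 78.6, 79.3 and 76.3 after DMSO and 21.2, 19.9 and 43.8 after CB-6644. An intronic region of IFIT2, an interferon-induced protein that binds RNA, carried an IRF match and was at 81.02, 80.9 and 78.4 against 53.3, 26.1 and 31.2. MX2, another antiviral effector, had an exonic region with an IRF match, at 64.5, 62.1 and 59.1 against 14.5, 33.7 and 37.2. Among cell cycle genes the transcription factors E2F3 and E2F7 and the helicase subunit MCM3 had 2 each, and E2F7 also had 1 stronger region.

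MAPK signalling genes had 18 of 149 (12.1%) and O-glycan synthesis genes 15 of 125 (12.0%), near the share of all regions. The study drew both themes from these samples. MAP3K1 and ST3GAL1, a sialyltransferase, had 3 each, and DUSP6, the ERK phosphatase, had 2 of 6 together with 1 stronger region. In the BCL2 family 4 of 47 were weaker (8.51%). PMAIP1, which encodes the BH3-only protein NOXA, had 3 of them and also 1 stronger region. Its 3 weaker regions were at 89.3, 88.5 and 79.0 against 45.0, 52.8 and 46.1, at 65.3, 58.1 and 53.4 against 28.7, 21.3 and 15.2, and at 85.0, 96.7 and 95.6 against 64.4, 13.4 and 43.8. The NF-kB list had 5 of 81 (6.17%), 3 of them beside the feedback inhibitor TNFAIP3. Genes of the RUVBL1/2 complexes had 2 of 46 (4.35%), and steroid receptor genes 4 of 40 (10%). No list had a Wilson interval that left out 11.7%.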

How the data were processed

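The authors aligned Omni-ATAC reads of 6 MM.1S libraries to hg38 with Bowtie2 2.4.2 and called peaks in each library with MACS3 3.0, versions as given in the submitters' processing notes. The caller's settings are not given in the sources used here. The deposited fold enrichment of each peak is the ratio of its pile-up to the local background, not scaled between libraries. The deposited −log10 p and −log10 q values are those of the authors' peak caller. The lists hold no read counts, so the study's edgeR test was not run and depth is known only through the recovered pile-up.

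Fold enrichment was ranked within each list (100 × average rank over the number of peaks), keeping the highest peak per merged region. Protein-coding TSSs were the 78567 transcript starts of GENCODE release 44. Pile-up and background were solved from fold and p as Poisson quantities, given that the fold adds 1 to numerator and denominator. A match was accepted within 2%, and 100% of the regions matched in every library. The steps were tested on simulated data. Motif windows were centred on the summit nearest to the median of the 6 summits and read from hg38. GC and level classes were quintiles of the 28333 regions. The 6 library values were compared by an exact permutation test, two-sided.

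The regions, motifs, gene lists and tests were chosen with earlier results of these data known. Named regions are the 10 with the largest margins, the 2 per motif with the largest margins, and the weaker regions beside named genes. Named genes are the 8 with the most weaker regions and up to 4 per list. An example of an E-box match is not reported here. Samples were grouped by the labels. Same-numbered libraries did not deviate together in a common direction (r = −0.45, −0.28 and 0.34 over the regions for replicates 1 to 3). The highest value of any pair was that of CB-6644 replicate 2 and DMSO replicate 1, the short-fragment libraries (r = 0.58). The replicate numbers were therefore taken not to pair the libraries. Scripts used Python 3.11.15, numpy 2.4.6, scipy 1.17.1, pandas 2.3.3, matplotlib 3.10.9 and pysam 0.24.0.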

Additional observations from a re-analysis of the deposited data

How the results depend on the processing

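Each of 12 results was recomputed under up to 25 alternatives, 4 of them chosen after seeing the data (ranking the pile-up among shared regions, ranks within GC classes, and motif differences within level classes or within GC and level classes). Of 253 values, 200 were counted as unchanged. Counts had to stay within 1.5 times and shares within the error of the reported value. The CB-6644 minus DMSO differences of the 4 motifs, in percentile points, had only to keep their sign. The IRF difference of −2.10 points without CB-6644 replicate 2, against −3.88, was therefore counted as unchanged. Of the values with a sign, 0 changed direction. Counts and the intron and looked-up shares have no sign. The weaker-to-stronger excess was not among the 12 results, and it was lost with equally long lists (1647 against 1669). The number of weaker regions was 1647 of 24712 (6.66%) with equally long lists and 489 of 7572 (6.46%) where each peak had to cover 50% of the region. It was 5850 (20.6%) and 1959 (6.91%) with margins of 0 and 10 points. In the 4 long-fragment libraries it was 8410 of 33676 (25%), and with ranks within GC classes 2127 (7.51%). Where no pool is given, it was the 28333 shared distal regions. The number of stronger regions under the same 6 settings was 1669 (6.75%), 324 (4.28%), 1708 (6.03%), 454 (1.6%), 3034 (9.01%) and 2062 (7.28%). It was 1626 (5.74%) with ranks among shared regions and 2596 (9.16%) with the pile-up ranked. With the replicate block it was 1400 (4.94%), beside 4820 weaker regions (17%). Leaving out 1 library gave 3846 to 6393 weaker and 1097 to 2052 stronger regions. The highest came when CB-6644 replicate 2 and DMSO replicate 1, respectively, were left out. Whichever library is left out, fewer libraries must differ and the pool changes. The ATF4-CEBP difference in shares was 3.85 points with ranks among shared regions, 4.36 with equally long lists, 3.91 at a margin of 10, 2.05 in the long-fragment libraries, 1.62 in windows of 50 bp on each side, 4.89 with the pile-up ranked and 2.01 to 2.74 with 1 library left out. The IRF difference was 4.997 with ranks among shared regions, 4.78 in the 50 bp windows, 2.75 within GC classes, 4.62 with ranks within GC classes, 3.10 within GC and level classes and 4.203 to 10.3 with 1 library left out, lowest when CB-6644 replicate 2 and highest when DMSO replicate 1 was left out. The MAF difference was −3.71 with equally long lists, −3.99 with 50% cover and −2.08 in the 50 bp windows, and the E-box difference was −3.43 with 50% cover, −1.95 within GC classes, −2.85 with ranks within GC classes, −1.76 within GC and level classes and −7.09 to −3.79 with 1 library left out. The looked-up share was 91.1% with −log10 p ranked, 86.1% with ranks among shared regions, 90.02% with equally long lists, 88.8% at a −log10 q of at least 5, 84.5% with 50% cover, 82.6% and 92.1% at margins of 0 and 10, 86.9% with 1 TSS per gene, 89.2% with the pile-up ranked and 79.9% with ranks within GC classes. At margins of 0 and 10 the share over all shared distal regions is 65.0%, as under the rule. For the other settings that share was not computed, so these values cannot be set against a background. The intron share was 47.7% with the pile-up ranked. The causes of these shifts were not tested. The replicate block, the mean of differences within replicate numbers, left the ATF4-CEBP class difference at −4.84 points (exact sign-flip p = 0.25, the smallest that 3 numbers allow), and all 3313 weaker regions stayed among the 4820. In CB-6644 replicate 2, a median of 13 fragments over the summits of weaker regions limits the precision of each value. A share of genomic repeats was not computed.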
